A study of Mus musculus with 6 samples.

Results

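Transcripts of 35 genes of glucose breakdown were followed on 6 Agilent arrays of BV2 cells. The genes were chosen by name, as the glucose carriers, glycolytic enzymes, lactate genes and pentose phosphate enzymes of the cell together with the regulators Hif1a and Tigar. Every one of the 35 had at least 1 probe on the array, 63 probes in all, among 23462 genes that could be named. BV2 cells are mouse microglia made immortal for culture, and all 6 samples came from cells given LPS, the bacterial membrane component that starts an inflammatory response. The 3 control arrays carried RNA of cells without PGC-1α overexpression, and the 3 overexpression arrays carried RNA of cells with it. Per the methods, PGC-1α was delivered by a lentivirus, in a vector with a Ubi promoter, and carriers were selected with puromycin, the comparison cells received a negative control virus, and LPS was given at 500 ng/ml for 6 h, although the culture methods do not name the arrays. The labels do not say whether the replicates were separate cultures, so each p-value measures the spread between these arrays, which may be technical.

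Glycolysis splits glucose into pyruvate with a small gain of ATP. Glucose enters through carriers of the Slc2a family, hexokinases trap it as glucose 6-phosphate, and the later enzymes are shared by nearly all cells. Lactate dehydrogenase turns pyruvate into lactate, which leaves through monocarboxylate transporters. The pentose phosphate pathway draws on the same glucose 6-phosphate for NADPH and ribose. Macrophages and microglia are known to shift towards glycolysis after LPS, with HIF-1α as a main activator of these genes, while PGC-1α is best known as a coactivator of mitochondrial genes that works with factors such as the estrogen-related receptors.

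Of the 35 genes, 33 could be tested, and 5 of these passed the test in the same direction under each of 3 ways of putting the arrays on a common scale. Another 11 passed under none of the 3, and the remaining 17 passed under some. Of all genes tested, 18.6% were higher and 18.7% lower under all 3, so such passes were common on these arrays. The glucose carrier gene Slc2a6, the hexokinase gene Hk2, the bifunctional enzyme gene Pfkfb4 and the regulator Tigar fell with PGC-1α overexpression, by 0.91 to 1.47 on the log2 scale. The pentose phosphate gene Rpe rose by 0.63. The promoters of these 5 genes are shown because they carry the pattern that did not depend on the scale. The windows run from 250 bases before to 50 after the transcription start, as listed by RefSeq for the mouse build GRCm38.p6, and are written 5′ to 3′ along the gene. Capitals mark the core letters that HIF-1 recognizes, ACGTG or GCGTG, on either strand.
Slc2a6, chr2:27027949-27028248, minus strand: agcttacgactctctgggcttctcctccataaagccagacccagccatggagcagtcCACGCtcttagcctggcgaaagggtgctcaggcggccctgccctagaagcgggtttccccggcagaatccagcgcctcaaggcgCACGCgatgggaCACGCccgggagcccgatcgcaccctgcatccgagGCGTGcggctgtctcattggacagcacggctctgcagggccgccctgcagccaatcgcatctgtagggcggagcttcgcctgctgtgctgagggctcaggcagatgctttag
Hk2, chr6:82774405-82774704, minus strand: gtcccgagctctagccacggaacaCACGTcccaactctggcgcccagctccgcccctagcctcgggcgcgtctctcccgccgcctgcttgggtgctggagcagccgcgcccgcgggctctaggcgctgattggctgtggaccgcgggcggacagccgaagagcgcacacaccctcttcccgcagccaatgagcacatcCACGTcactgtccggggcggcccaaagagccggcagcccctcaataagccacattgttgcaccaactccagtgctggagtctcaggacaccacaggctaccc
Pfkfb4, chr9:108991652-108991951, plus strand: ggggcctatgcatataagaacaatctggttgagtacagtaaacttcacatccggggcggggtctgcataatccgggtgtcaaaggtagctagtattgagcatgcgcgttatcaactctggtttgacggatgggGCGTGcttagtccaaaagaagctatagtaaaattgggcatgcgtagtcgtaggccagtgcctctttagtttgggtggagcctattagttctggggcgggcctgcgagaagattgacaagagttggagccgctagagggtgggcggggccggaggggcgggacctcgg
Tigar, chr6:127109503-127109802, minus strand: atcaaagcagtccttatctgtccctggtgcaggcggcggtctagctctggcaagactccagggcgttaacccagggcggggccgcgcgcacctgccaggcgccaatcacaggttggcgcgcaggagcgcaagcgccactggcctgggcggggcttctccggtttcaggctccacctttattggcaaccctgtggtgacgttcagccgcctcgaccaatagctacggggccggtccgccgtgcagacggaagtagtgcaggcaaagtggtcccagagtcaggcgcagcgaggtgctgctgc
Rpe, chr1:66700581-66700880, plus strand: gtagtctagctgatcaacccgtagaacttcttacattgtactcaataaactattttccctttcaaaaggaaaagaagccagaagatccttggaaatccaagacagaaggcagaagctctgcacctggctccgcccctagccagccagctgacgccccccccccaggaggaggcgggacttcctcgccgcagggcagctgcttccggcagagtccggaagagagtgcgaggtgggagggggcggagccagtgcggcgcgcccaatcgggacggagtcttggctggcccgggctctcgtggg

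The core letters occurred 4 times in the Slc2a6 window, 2 times in that of Hk2, 1 time in that of Pfkfb4 and 0 times in those of Tigar and Rpe. A window was listed for 34 of the 35 genes, all but Slc2a3, and 26 of the 34 (76.5%) held at least 1 such core. The share was 55.6% among 13456 windows of tested genes and 43.8% among all 27025 windows. A match describes the letters of a window and is not a measured binding site. The E-box CACGTG, read by MYC-type factors and containing the HIF core on both strands, lay in 5 of the 34 windows (14.7%). Its share was 9.03% among the windows of tested genes and 7.24% among all windows. The site of estrogen-related receptors, TNAAGGTCA with N for any base, lay in 1 of the 34, that of Tpi1. Among the windows of tested genes the share was 0.94%, and among all windows 1.26%.

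The signals came from the green channel of the scanner, and each array was scaled by subtracting its own 75th percentile from the log2 intensities. Scaled log2 signal below means this difference, and a log2 fold change is the mean of the overexpression arrays minus that of the controls. In intensity units that percentile stood at 1617, 1627 and 1893 for the controls and at 1157, 856 and 1268 with PGC-1α, so the overexpression arrays were all the dimmer ones. Many results below differed between ways of scaling the arrays, and the part of this gap in that was not tested. With the 75th percentile scaling the 17062 genes tested had a median log2 fold change of 0.23. Quantile normalization gives every array the same distribution of signals, and the median was then 0.03. Both Ppargc1a probes, for the gene of PGC-1α itself, were near background at log2 intensities of 3.18 to 4.48, each well above background on 2 control arrays and on 1 or 2 overexpression arrays, and were not tested. The arrays therefore hold no firm check of the overexpression. Of 12 microglia and macrophage markers, 10 were well above background on all 6 arrays, and Cx3cr1 and P2ry12 on none. Of 18 markers of other brain cells, 13 were above background on all 6 arrays and Cdh5 and Syt1 on none. Of the 14 tested, 7 were higher and 3 lower in the overexpression cells, where 36.9% and 19.6% of all genes were. Under quantile normalization 5 were higher and 3 lower. The summed scaled signal of these markers, on a linear scale with the 75th percentile of the array as 1, was 38.0 to 44.0 in the controls. It was 59.5 to 76.6 in the overexpression cells, and its part in the results was not tested. Most of this sum came from the neuron and fibroblast markers, at 24.2 to 29.7 and 12.4 to 13.2 in the controls. The sum of the microglia and macrophage markers was also higher, at 88.4 to 91.8 in the controls and 124 to 147 in the overexpression cells. The single markers did not all follow it. Of the 10 tested, 5 were higher and 1 lower on this scale, and 0 and 2 under quantile normalization. Tmem119 fell on both, at -2.68 and -2.71. Adgre1 gave -0.13 and -0.45 and passed on the second alone. Snap25 and Col1a1, bright markers of neurons and fibroblasts, rose by 0.71 and 0.77 on the log2 scale. They gave 0.11 and 0.25 under quantile normalization, where neither passed (limma adjusted p = 0.49 and 0.13). Another Snap25 probe was well above background on none of the arrays. The other tested markers of these cells differed. Rbfox3 and Col1a2 rose by 1.14 and 1.12, and by 0.84 and 1.04 under quantile normalization, where both passed. The Rbfox3 result, counted as higher on both scales, is uncertain. Its signal stood clear of background in only 2 of the 3 controls, but in all 3 overexpression samples. Rbfox3 lay in the dimmest of 10 groups of genes ranked by brightness, whose median was 0.62 on the first scale. Under cyclic loess, a scaling described below, it gave 0.74 and did not pass (limma adjusted p = 0.080). Tubb3 and Pdgfra gave -0.63 and -1.63, and -0.69 and -1.79 under quantile normalization, where both passed as lower. On bulk RNA, fewer cells expressing a gene and less RNA per cell cannot be told apart.

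Under the 75th percentile scaling 21 of the 33 genes changed, 17 higher and 4 lower, by limma with an adjusted p under 0.05. Among all genes tested 56.5% passed the same threshold, 36.9% higher and 19.6% lower. The median log2 fold change of the 33 was 0.44, which is 0.21 above that of all genes. Under quantile normalization the count was 6, with 1 higher and 5 lower, beside 42.5% of all genes, 21.7% higher and 20.9% lower. The median of the 33 was then -0.04, and -0.07 relative to that of all genes. Cyclic loess, an alignment of arrays along the brightness range that was added after the data were seen, also left 6 genes, 1 higher and 5 lower. Past the threshold in the same direction under all 3 scalings were 1 gene higher (Rpe) and 4 lower (Slc2a6, Hk2, Pfkfb4 and Tigar), where 18.6% of all genes were higher and 18.7% lower. Of the 25 genes with a value on every array, 20 had groups that did not overlap under the 75th percentile scaling, 17 higher and 3 lower. In 8 of the 33 genes 1 array lacked a value, because its spot was marked as an outlier. Over all 16296 genes with every value the share was 65.5%, with 42.6% higher and 22.9% lower.

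**Figure D1:**
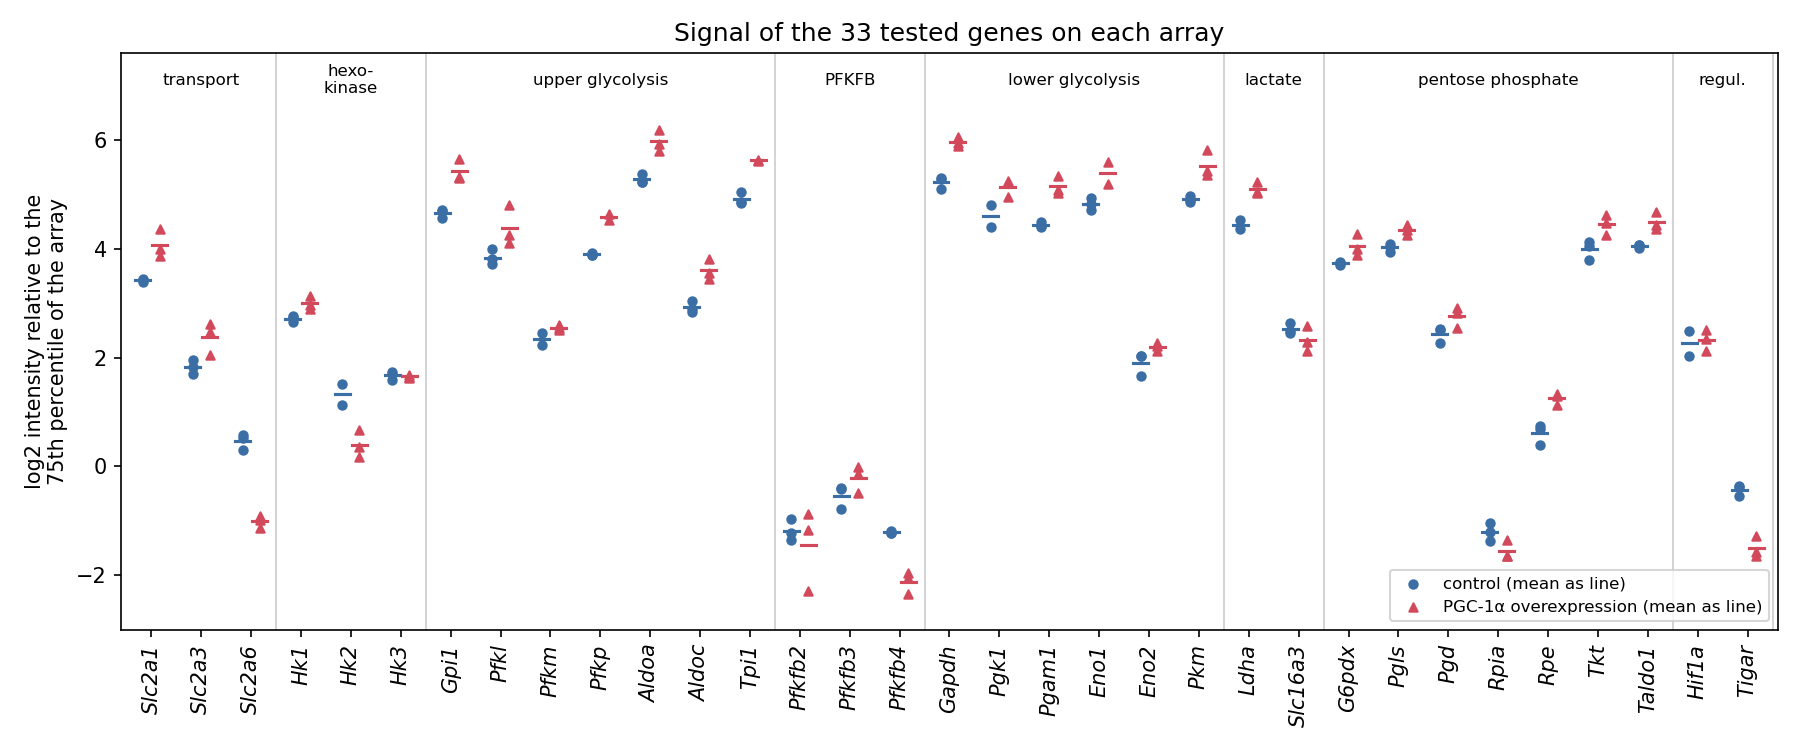
Scaled log2 signal (log2 intensity minus the 75th percentile of the array) of the 33 tested genes on each array, grouped by role. Circles are the 3 control arrays, triangles the 3 overexpression arrays and lines the group means. Slc2a6, Hk2, Pfkfb4 and Tigar lie lower in the overexpression cells, and the bright enzymes of glycolysis lie higher on this scale.

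The carriers went in different directions. Slc2a6 codes for GLUT6, a carrier known from immune cells, and had scaled log2 signals of 0.58, 0.52 and 0.30 in the controls and -1.13, -0.92 and -0.98 in the overexpression cells. The groups lay far apart. The log2 fold change was -1.47 ± 0.13 (SE, n = 3 and 3, limma adjusted p = 1.7e-04), a 2.78-fold lower signal and the largest difference among the 33 genes. It was -1.57 on slide 1, which held 2 arrays of each group, and -1.28 on slide 2, which held 1 of each. The other tested Slc2a6 probe gave -1.06, and quantile normalization gave -1.47. Slc2a1 codes for GLUT1, the main carrier of most cells, and read 3.43, 3.39 and 3.45 on the control arrays against 3.99, 4.37 and 3.87 on the overexpression arrays. The log2 fold change of 0.65 ± 0.15 (limma adjusted p = 0.0085) shrank to 0.16 under quantile normalization, where the adjusted p was 0.35. Slc2a3 codes for GLUT3, a carrier of high affinity, with 1.96, 1.83 and 1.70 in the controls and 2.48, 2.62 and 2.05 in the overexpression cells. Its log2 fold change was 0.55 (limma adjusted p = 0.025), and 0.31 under quantile normalization (adjusted p = 0.17). The other, dimmer tested Slc2a3 probe gave 0.96 on the first scale and was not followed on the second. Thus Slc2a6 fell on both scales. The rise of Slc2a1 and of the brighter Slc2a3 probe passed the threshold on the first alone.

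Of the hexokinases, which commit glucose to the cell, 1 of 3 changed. Hk2, the inducible form that binds mitochondria, read 1.14 and 1.52 on control arrays 2 and 3, while its spot on control array 1 was marked as an outlier and left out. The overexpression arrays read 0.35, 0.17 and 0.67, all below both controls. The log2 fold change was -0.93 ± 0.20 (limma adjusted p = 0.0077), and -0.98 under quantile normalization (adjusted p = 0.0057). On both slides it was near that value, at -0.87 on slide 1, from 1 control array, and -0.85 on slide 2. Hk1, the form found in most tissues, read 2.76, 2.74 and 2.66 in the controls and 2.90, 3.14 and 2.97 in the overexpression cells, a log2 fold change of 0.29 (limma adjusted p = 0.076) that turned to -0.08 under quantile normalization. Hk3, a form of myeloid cells, read 1.74, 1.60 and 1.70 against 1.64, 1.69 and 1.63, with overlapping groups and a log2 fold change of -0.02 (limma adjusted p = 0.87). Its other tested probe gave 0.29, the only case among 17 genes with several tested probes in which the probes differed in sign.

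The upper enzymes of glycolysis had mostly bright probes. All but Pfkm of Gpi1, Pfkl, Pfkm, Pfkp, Aldoa, Aldoc and Tpi1 rose on the first scale, 6 of 7, with log2 fold changes of 0.55 to 0.76 for those that rose, and 0 of 7 passed under quantile normalization. Gpi1, the isomerase that makes fructose 6-phosphate, read 4.70, 4.71 and 4.58 in the controls and 5.30, 5.66 and 5.33 in the overexpression cells, a log2 fold change of 0.76 ± 0.14 (limma adjusted p = 0.0032) and of 0.17 under quantile normalization (adjusted p = 0.34). The phosphofructokinases catalyse the committed step. Pfkp, the platelet form, read 3.89, 3.89 and 3.93 in the controls and 4.65 and 4.52 on overexpression arrays 2 and 3, with the spot on array 1 left out as an outlier, for a log2 fold change of 0.68. Pfkl, the liver form, read 4.0, 3.81 and 3.71 against 4.25, 4.80 and 4.11, a log2 fold change of 0.55, and 0.00 under quantile normalization. Pfkm, the muscle form, read 2.46 and 2.23 on control arrays 1 and 3 against 2.55, 2.51 and 2.60, a log2 fold change of 0.21 that did not pass (limma adjusted p = 0.25) and was -0.06 under quantile normalization. None of the 3 forms therefore differed on both scales.

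The aldolases cut the sugar into triose phosphates. Aldoa, the main form, read 5.23, 5.38 and 5.22 in the controls and 5.93, 6.19 and 5.80 in the overexpression cells, a log2 fold change of 0.70 and of 0.06 under quantile normalization. Aldoc, known as the brain form, read 3.03, 2.90 and 2.84 against 3.56, 3.81 and 3.44, with log2 fold changes of 0.68 and 0.24. Both rose on the first scale without overlap between the groups, and neither passed on the second (adjusted p = 0.74 and 0.19, limma).

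The bifunctional enzymes set the level of fructose 2,6-bisphosphate, the strongest activator of phosphofructokinase. Pfkfb4 fell, with scaled log2 signals of -1.23, -1.22 and -1.18 in the controls and -2.05, -2.35 and -1.97 in the overexpression cells. The log2 fold change was -0.91 ± 0.14 (limma adjusted p = 0.0015), or 1.88-fold lower, and -0.92 under quantile normalization. It was -0.98 on slide 1 and -0.78 on slide 2, and the other tested probe of the gene gave -0.55. Pfkfb3, the form known to be induced by inflammation and hypoxia, read -0.40, -0.42 and -0.78 in the controls and -0.01, -0.13 and -0.49 in the overexpression cells, which overlap. Its log2 fold change of 0.33 did not pass (limma adjusted p = 0.14). Pfkfb2 read -1.36, -1.22 and -0.96 against -1.17, -2.29 and -0.87, where overexpression array 2 stood far below the other two, and its log2 fold change of -0.27 did not pass (limma adjusted p = 0.51).

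The lower enzymes, which recover ATP and end in pyruvate, gave the same picture as the upper ones. Gapdh, the dehydrogenase often used as a reference gene, read 5.10, 5.31 and 5.28 in the controls and 5.89, 6.06 and 5.95 in the overexpression cells, a log2 fold change of 0.74 ± 0.12 (limma adjusted p = 0.0022). Quantile normalization reduced this to 0.10 (adjusted p = 0.51). Its 6 tested probes gave 0.66 to 0.78 on the first scale, and probes of Gapdh can also bind transcripts of its many processed copies. Eno1, the common enolase, read 4.72, 4.82 and 4.93 in the controls and 5.19 and 5.60 on overexpression arrays 1 and 2, a log2 fold change of 0.57 that was -0.04 under quantile normalization. Eno2, the neuronal enolase, read 2.03, 2.02 and 1.66 against 2.27, 2.22 and 2.12, and its log2 fold change of 0.30 did not pass (limma adjusted p = 0.10). Pgk1, Pgam1 and Pkm, for phosphoglycerate kinase, phosphoglycerate mutase and pyruvate kinase, rose on the first scale by 0.53, 0.71 and 0.62, Pgk1 without control array 2, and gave -0.08, 0.11 and 0.01 under quantile normalization. Of these 6 enzymes 5 passed on the first scale and 0 on the second.

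**Figure D2:**
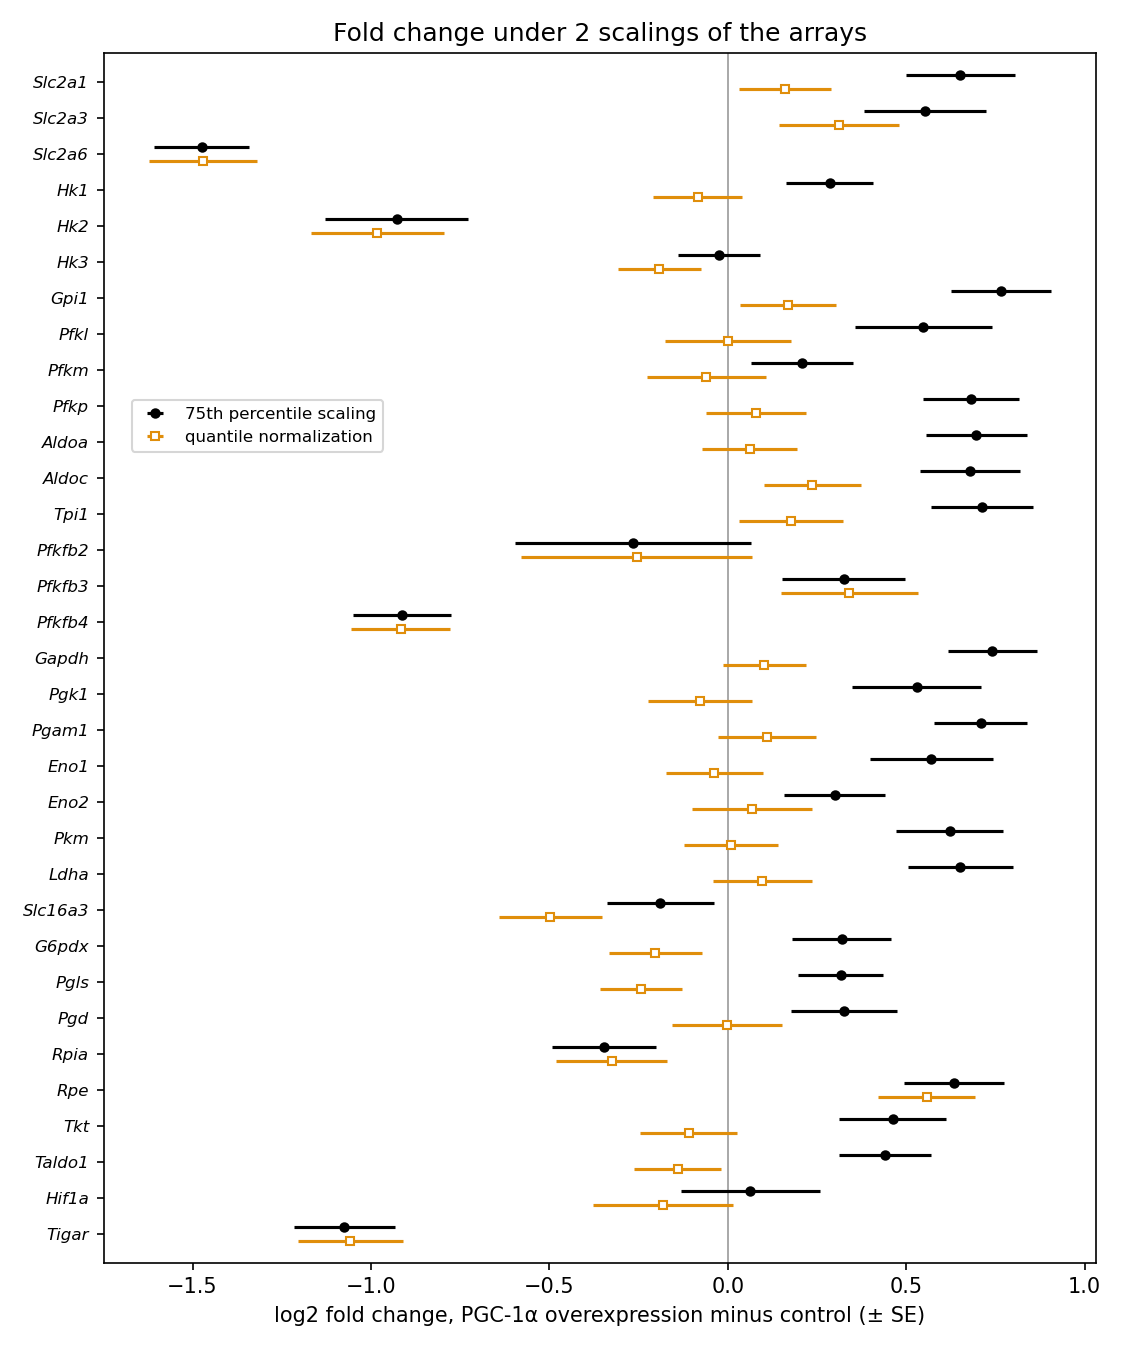
Log2 fold change (overexpression minus control) ± SE of the 33 tested genes, with the 75th percentile scaling as filled circles and quantile normalization as open squares. The symbols of Slc2a6, Hk2, Pfkfb4, Tigar and Rpe nearly coincide, and those of the other 16 genes that rose move from between 0.44 and 0.76 to between -0.14 and 0.31.

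The lactate genes gave 1 change on each scale, in different genes. Ldha, whose subunit favours the making of lactate, read 4.36 and 4.54 on control arrays 2 and 3, with the spot on array 1 left out, and 5.05, 5.22 and 5.03 in the overexpression cells. Its log2 fold change was 0.65 ± 0.15 (limma adjusted p = 0.0089), and 0.10 under quantile normalization (adjusted p = 0.61). Slc16a3 codes for MCT4, the lactate exporter of glycolytic cells, and read 2.63, 2.49 and 2.45 in the controls and 2.28, 2.59 and 2.13 in the overexpression cells. These groups overlapped, and the log2 fold change of -0.19 did not pass (limma adjusted p = 0.31), while under quantile normalization it was -0.50 and passed (adjusted p = 0.025), as it did with cyclic loess at -0.48 (adjusted p = 0.022). Ldhb, the other lactate dehydrogenase subunit, was not well above background on any array with either probe. Slc16a1 codes for MCT1, and its only probe was bright, with log2 intensities before scaling of 13.97, 13.81 and 14.15 in the controls and 13.13, 12.75 and 13.57 in the overexpression cells. Those intensities include the lower brightness of the overexpression arrays. Its spots were marked as outliers on 2 control arrays and 1 overexpression array, so the gene was not tested. The usable scaled log2 signals were 3.27 on control array 3 and 2.96 and 3.01 on overexpression arrays 1 and 2, too few for a direction.

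In the pentose phosphate pathway 3 of 7 genes rose on the first scale and 1 on the second. Rpe codes for ribulose-phosphate 3-epimerase, which links the oxidative and nonoxidative branches. It read 0.40, 0.75 and 0.70 in the controls and 1.29, 1.33 and 1.13 in the overexpression cells, with no overlap. The log2 fold change was 0.63 ± 0.14 (limma adjusted p = 0.0065), and 0.56 under quantile normalization (adjusted p = 0.013). It was 0.73 on slide 1 and 0.44 on slide 2, and the other tested probe gave 0.39. The nonoxidative enzymes Tkt and Taldo1 (transketolase and transaldolase) rose by 0.46 and 0.44 on the first scale, with adjusted p of 0.030 and 0.021 by limma, and turned to -0.11 and -0.14 under quantile normalization without passing. The oxidative genes G6pdx, Pgls and Pgd, the sources of NADPH, had log2 fold changes of 0.32, 0.32 and 0.33 that did not pass (limma adjusted p = 0.078, 0.052 and 0.090), and all 3 were below 0 under quantile normalization. Rpia, the isomerase beside Rpe, had a log2 fold change of -0.35 that did not pass (limma adjusted p = 0.074). The epimerase was thus the sole gene of this pathway past the threshold under all 3 scalings.

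The regulators differed from each other. Tigar, a phosphatase that lowers fructose 2,6-bisphosphate and is known to direct glucose towards the pentose phosphate pathway, read -0.39, -0.36 and -0.54 in the controls and -1.57, -1.65 and -1.28 in the overexpression cells. The groups were well separated, with a log2 fold change of -1.07 ± 0.14 (limma adjusted p = 8.2e-04), a 2.11-fold lower signal, and of -1.06 under quantile normalization. On slide 1 it was -1.24 and on slide 2 -0.74. Hif1a, the gene of the oxygen-regulated subunit of HIF-1, read 2.03 and 2.49 on control arrays 1 and 3 and 2.34, 2.13 and 2.51 in the overexpression cells, and the groups overlapped. Its log2 fold change was 0.06 (limma adjusted p = 0.80), and -0.18 under quantile normalization (adjusted p = 0.49).

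The values before scaling include the lower brightness of the overexpression arrays, so a gene that fell after scaling had to lie lower still before it. The raw log2 intensities of Slc2a6, Hk2, Pfkfb4 and Tigar differed by -2.14, -1.63, -1.58 and -1.74, which is no separate evidence of their fall. Tigar, for example, read 10.27, 10.31 and 10.34 in the controls and 8.60, 8.09 and 9.03 in the overexpression cells. Rpe read 11.06, 11.42 and 11.58 against 11.47, 11.07 and 11.44, a difference of -0.03, so its rise is a rise relative to the other probes of dimmer arrays. The other 16 genes that rose on the first scale likewise had raw differences of -0.22 to 0.22. Gapdh read 15.76, 15.97 and 16.17 before scaling in the controls and 16.07, 15.81 and 16.26 in the overexpression cells.

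**Figure D3:**
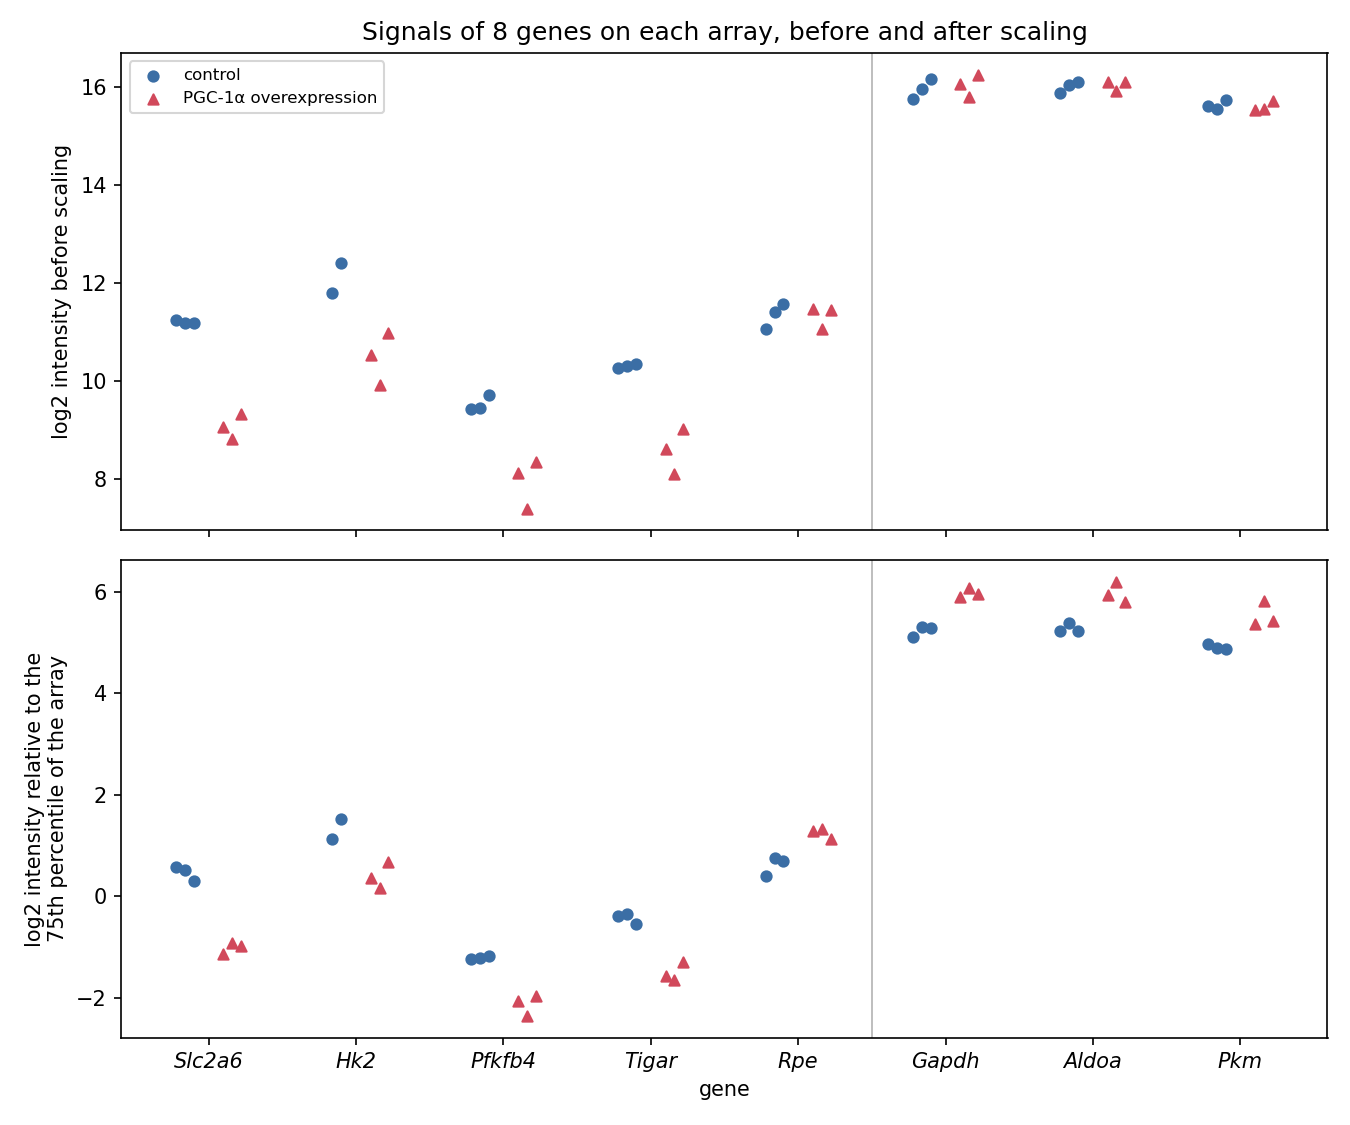
Log2 intensities of 8 genes on each array before scaling (top) and after subtraction of the 75th percentile of the array (bottom), with controls as circles and overexpression arrays as triangles. The overexpression arrays were dimmer as a whole by their 75th percentile, which the panels do not show. Slc2a6, Hk2, Pfkfb4 and Tigar are lower in both panels, while Rpe, Gapdh, Aldoa and Pkm overlap at the top and separate at the bottom.

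Probe brightness moved together with these rises. The genes tested were ranked by mean log2 intensity and divided into deciles, 10 groups of equal size. The brightest decile held 18 of the 33 genes, and 15 of the 17 that rose. Over all 1706 genes of that decile the median log2 fold change was 0.52, and 71.3% were higher past the threshold, beside a range of 0.29 to 0.76 and a median of 0.64 for the 18. Under quantile normalization the median of that decile was 0.01, and under cyclic loess 0.05. For the 16 genes other than Rpe, the log2 fold changes of 0.44 to 0.76 on the first scale became -0.14 to 0.31 under quantile normalization, with a lowest adjusted p of 0.17, and -0.06 to 0.31 under cyclic loess, with a lowest adjusted p of 0.073 (limma). The 8 genes in deciles 5 to 8 included all 5 that passed on every scale, and the medians of all genes in those deciles lay between -0.14 and 0.08. On the first scale the 17 genes were higher on slide 1, by 0.48 to 0.79, and 16 of them, all but Eno1, which had no value there, on slide 2, by 0.35 to 0.75.

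**Figure D4:**
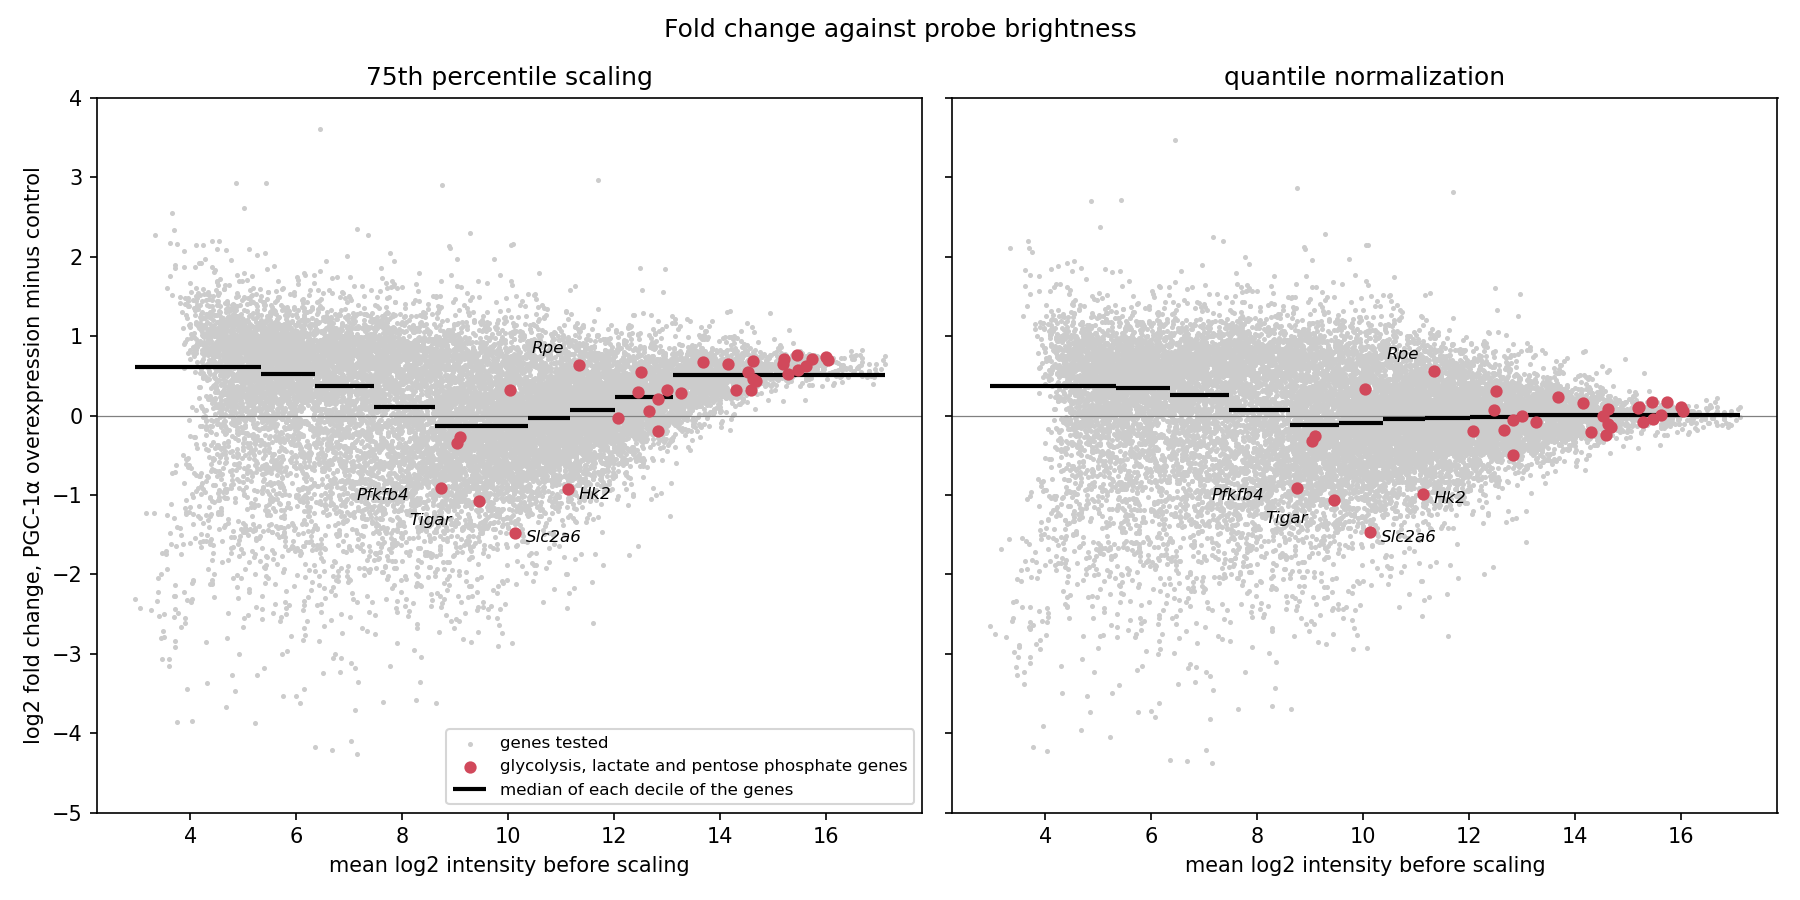
Log2 fold change (overexpression minus control) against mean log2 intensity before scaling for the 17062 genes tested, under both scalings, with the 33 genes as large points and the median of each decile of the genes as black lines. In the brightest decile the median is 0.52 at left and 0.01 at right, and the large points follow it, while Slc2a6, Hk2, Pfkfb4, Tigar and Rpe keep their place.

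Other genes of glucose use were read from a list of 64 enzymes, carriers and pathway branches outside the 35, of which 52 were tested. On the first scale 23 were higher and 7 lower, where 36.9% and 19.6% of all genes were, and on the quantile scale 14 and 7, where 21.7% and 20.9% of all genes were. The median log2 fold change of the list minus that of all genes was -0.00 on the first scale and 0.03 on the second. Genes past the threshold and at least 1 away from the median of all genes are named. The fructose carrier gene Slc2a5 fell by 1.19, the liver bifunctional enzyme gene Pfkfb1 fell by 1.14 and H6pd, which starts the pentose phosphate route inside the endoplasmic reticulum, fell by 1.15 on the log2 scale. Glycogen synthase Gys1 rose by 1.27, from 1.80, 1.62 and 1.52 to 2.83, 3.29 and 2.64. The germ cell isozyme genes Pgk2 and Ldhc rose by 1.49 and 1.46. Slc2a12, a carrier of the same family, was not well above background on any control array and was above it on all 3 overexpression arrays. With the control arrays set to the lowest signal called well above background, it was 1.63-fold higher on the first scale. This is not a firm minimum, because the scaling subtracts less from every signal on the dimmer overexpression arrays, those near background included. Slc2a12 lay in the dimmest decile, whose genes had a median of 0.62 on that scale. Its p-value is not given, because its control signals were not well above background. The other genes named here passed in the same direction under all 3 scalings.

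A second list held 34 regulators and targets of HIF-1 and related sensors, with 31 tested. On the first scale 20 were higher and 4 lower, beside 36.9% and 19.6% of all genes, with a median 0.30 above that of all genes. On the quantile scale 12 were higher and 3 lower, beside 21.7% and 20.9%, with a median 0.26 above it. Under all 3 scalings 10 were higher and 3 lower, beside 18.6% and 18.7% of all genes. By the same rule the named genes are Txnip, which restrains glucose uptake and rose by 1.29, Mlxip, for a partner of glucose sensing that fell by 1.12, and Myc, which fell by 1.09. Under quantile normalization Txnip still rose, by 0.72, and Mlxip and Myc fell by 1.1 and 1.17. Car9, Ankrd37, Vegfa and Ndrg1, named after their values were seen, are known targets of HIF-1 and rose by 1.06, 1.05, 1.1 and 1.13 on the first scale and by 1.04, 0.91, 0.83 and 0.68 on the second. Other genes of this list were mixed. Egln3, Higd1a, Ero1l and Kdm3a also rose under all 3 scalings, by 0.85, 0.98, 0.97 and 0.44 on the first scale. On the second they rose by 0.57, 0.49, 0.47 and 0.44. Bhlhe40 fell on both scales, by 0.47 and 0.48, and Car12, at 0.22 and -0.09, passed on neither. Bnip3, P4ha1, Ddit4 and Fam162a rose by 0.64, 0.53, 0.42 and 0.84 on the first scale. They gave 0.15, 0.16, 0.19 and 0.25 on the second without passing (limma adjusted p = 0.51, 0.41, 0.32 and 0.13). With cyclic loess Fam162a passed at 0.30 (limma adjusted p = 0.044), and Bnip3, P4ha1 and Ddit4 did not. Among the 35 genes, which include many known targets of the same factor, Rpe was the only one to pass upwards on the second scale.

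**Figure D5:**
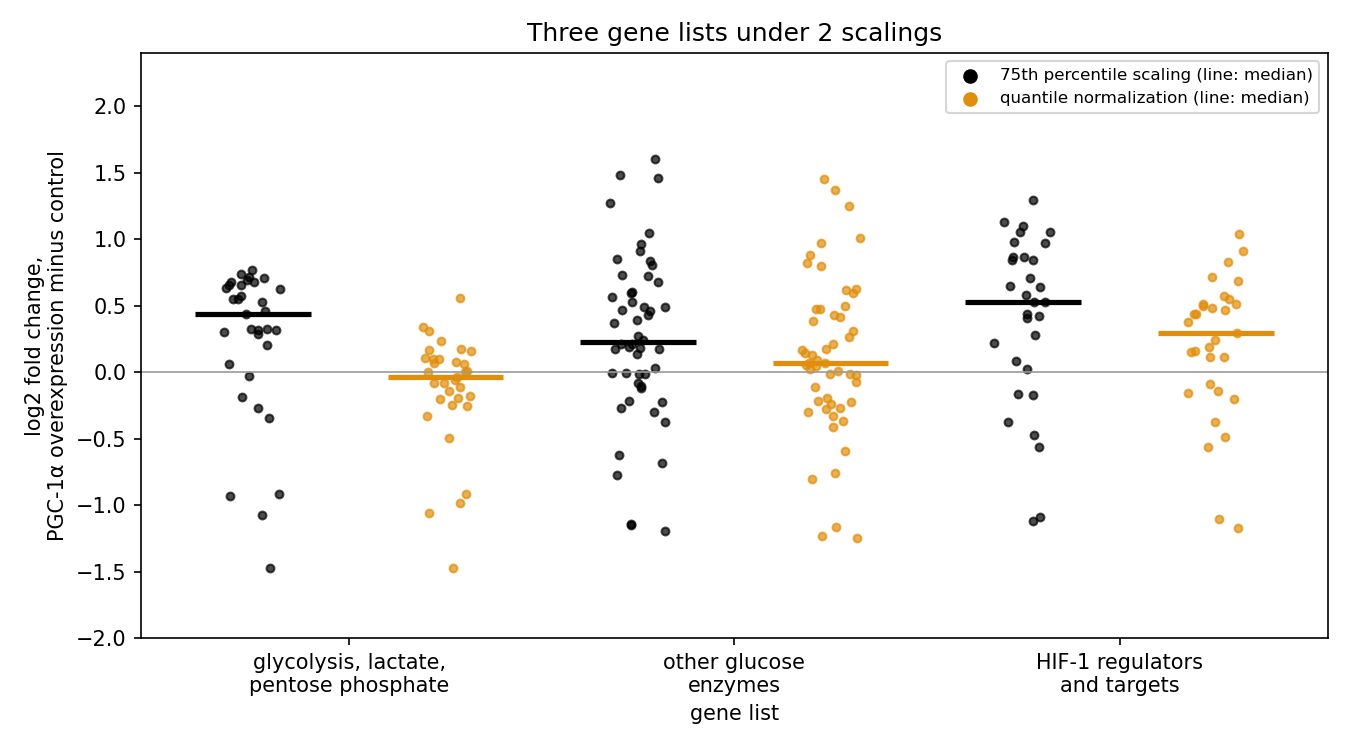
Log2 fold change (overexpression minus control) of the tested genes of 3 lists (33, 52 and 31 genes), under the 75th percentile scaling (black) and quantile normalization (orange), with each list's median as a line. Only the glycolysis, lactate and pentose phosphate genes have a median on opposite sides of 0 under the 2 scalings, at 0.44 and -0.04.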

How the data were processed

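RNA of 6 samples of BV2 cells after LPS, 3 control and 3 overexpressing PGC-1α, was measured on 1-colour Agilent arrays, 3 per group, on 2 slides. The intensity values were deposited by the authors as Agilent Feature Extraction 11.5.1.1 gave them, with the background subtracted within each array and no scaling between arrays. A second table deposited by the authors holds log2 values of a subset of the probes after a GeneSpring normalization that is not specified, and it served as an alternative. The labels give Cy3 and the methods Cy5, and the files hold the green channel.

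For each array log2 was taken, the 75th percentile over 59305 spots other than controls was subtracted, spots flagged by the scanner software as outliers (149 to 1590 on an array) were dropped and replicate spots averaged. Of 56605 probes 33767 (59.7%) matched a RefSeq gene by accession. Probes entered the test with 2 or more values in both groups and signals well above background on the 3 arrays of either group, and the brightest such probe was taken for a gene. This gave 17062 genes, 766 of them without a value on some array. The comparison used limma 3.58.1 (lmFit and eBayes, R 4.3.3) with two-sided p-values, adjusted by Benjamini-Hochberg across every gene tested, and a threshold of 0.05. On simulated arrays of the same size, 66% of genes changed by 1 and 89% of genes changed by 2 on the log2 scale were recovered. Only 200 of the 17062 genes were changed there, while 56.5% of genes passed in the data. The adjusted threshold depends on that share, so these rates do not give the sensitivity of the real comparison.

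All 35 genes are named, with values per array for isozymes, regulators and genes past the threshold at least 0.5 from the median of all genes, and so are genes of the other 2 lists past it and at least 1 from that median. The genes and lists were chosen with earlier results of these data known. Alternatives were quantile normalization, normexp background correction with an offset of 50 (on median signals), scaling by the median, a stricter filter or none on dim probes, averaging a gene's probes, a slide or replicate block, a variance trend with robust estimation, the GeneSpring table, omission of single arrays and cyclic loess. Python 3.11.15 with numpy 2.4.6, pandas 2.3.3 and matplotlib 3.10.9 was used for tables and plots. The number of arrays limits the precision.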

Additional observations from a re-analysis of the deposited data

How the results depend on the processing

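Slc2a6, Pfkfb4, Tigar and Rpe passed the threshold in the same direction in all 18 alternatives, and Hk2 in the 17 in which it could be tested. The 21 changed genes became 6 under quantile normalization, normexp with quantile normalization, the authors' log2 values and cyclic loess, and the 17 higher became 1 in each of these and 11 with scaling by the median. The median of the genes relative to all genes moved from 0.21 to -0.072 under quantile normalization, -0.023 under normexp with quantile normalization, -0.069 with the authors' log2 values and -0.019 under cyclic loess, the last chosen after seeing the data. Among the 21 changed genes, signs turned under quantile normalization for Pgk1 (-0.078), Eno1 (-0.038), Tkt (-0.11) and Taldo1 (-0.14). Under normexp with quantile normalization they turned for Tkt (-0.15) and Taldo1 (-0.16). With the authors' log2 values they turned for Pfkl (-0.028), Pgk1 (-0.074), Eno1 (-0.047), Pkm (-0.0051), Tkt (-0.13) and Taldo1 (-0.165). Under cyclic loess they turned for Pgk1 (-0.027), Eno1 (-0.055), Tkt (-0.021) and Taldo1 (-0.049). Genes that had not passed on the first scale also turned sign, 6, 4, 6 and 5 of them under these scalings in that order. These scalings give all arrays a like distribution or a like curve along brightness by construction, and the cause of the differences between arrays was not tested. Leaving out each array in turn gave 14 to 21 changed genes, 10 to 17 higher and 4 lower, with the fewest higher (10) without control replicate 2 and a relative median of 0.14 to 0.28. The slide as a block gave 24 changed genes, 20 higher and 4 lower. The replicate number as a block gave 24, 19 higher and 5 lower, but deviations from the group means correlated over genes for number 3 alone, whose arrays shared slide 2 (r = -0.16, 0.07 and 0.60 for numbers 1 to 3), so the numbers were not taken as a pairing.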
